A study of Mus musculus with 4 samples.

Results

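The TGF-beta pathway was described here through 37 genes, listed by name as ligands and their binding proteins, receptors, SMADs, feedback inhibitors and known targets, out of 22180 mouse genes with a probe set of their own on the array. All 37 had such a probe set. Each of 4 preparations of BALB/c mast cells was hybridized to 1 Affymetrix array that covers whole transcripts. The groups were mast cells sorted from the small intestinal lamina propria of naive mice as FceRI and c-Kit positive, bone marrow-derived mast cells (BMMCs) grown for 6 days beside Chinese hamster ovary (CHO) cells that carried mouse Dll1, BMMCs grown for 6 days with TGF-beta1 at 5 ng/ml, and BMMCs grown for 6 days in plain medium (control). The 3 cultures came from bone marrow that had spent 3 to 4 weeks in 10 ng/ml interleukin-3 plus 10 ng/ml stem cell factor. After the Dll1 coculture, c-Kit positive cells were taken out with magnetic beads, and the labels name no selection for the other cultures. Dll1 sits in the membrane and activates Notch receptors of neighbouring cells, and CHO is an adherent hamster line. No number of animals or pooling is given in the labels.

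TGF-beta is secreted in a latent form that binding proteins hold in the matrix. Once released, it is bound by the type II receptor Tgfbr2, which activates the type I receptor Tgfbr1. This kinase phosphorylates Smad2 and Smad3, which join Smad4 and act on genes in the nucleus, while BMP ligands act through Bmpr2, Acvr1 or Bmpr1a on Smad1 and Smad5. Many of the genes that respond encode brakes on the pathway, such as Smad7, Skil, Ldlrad4 and Pmepa1. In cultured mast cells TGF-beta1 is known for inducing the chymase Mcpt1 and the integrin chain Itgae, markers of mucosal mast cells.

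Levels are log2 values as the authors deposited them, and only the 4 values of the same gene are set against each other. The background limit of an array was the 95th percentile of its probe sets of smell and taste receptors, which mast cells are not known to use. It was 5.11 on the intestinal array, 5.12 on the Dll1 array, 5.20 on the TGF-beta1 array and 5.11 on the control array. Of the 37 genes, 31 were above it in intestinal mast cells, 34 in Dll1-cocultured BMMCs, 28 in TGF-beta1-treated BMMCs and 29 in control BMMCs. Over all genes the shares above it were 54.7%, 55.8%, 51.0% and 52.8% on these arrays. They follow the same order, so at this limit the order of the counts is not particular to the pathway. With a higher limit the counts took another order, given in the last section. On all 4 arrays 26 were above it, and Tgfbr3, Acvrl1 and Smad6 were on none. With 1 array per group, no value below has a replicate check or a p-value, and no difference can be set against a spread between samples. As the nearest gauge, the log2 differences of 2 probe sets of a gene spread with a standard deviation of 0.48 for intestinal against control arrays, 0.34 for Dll1 against control, 0.24 for TGF-beta1 against control and 0.34 for Dll1 against TGF-beta1. That gauge covers no variation between cultures or animals. In bulk RNA fewer cells of a type and less RNA per cell cannot be told apart.

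**Figure D1:**
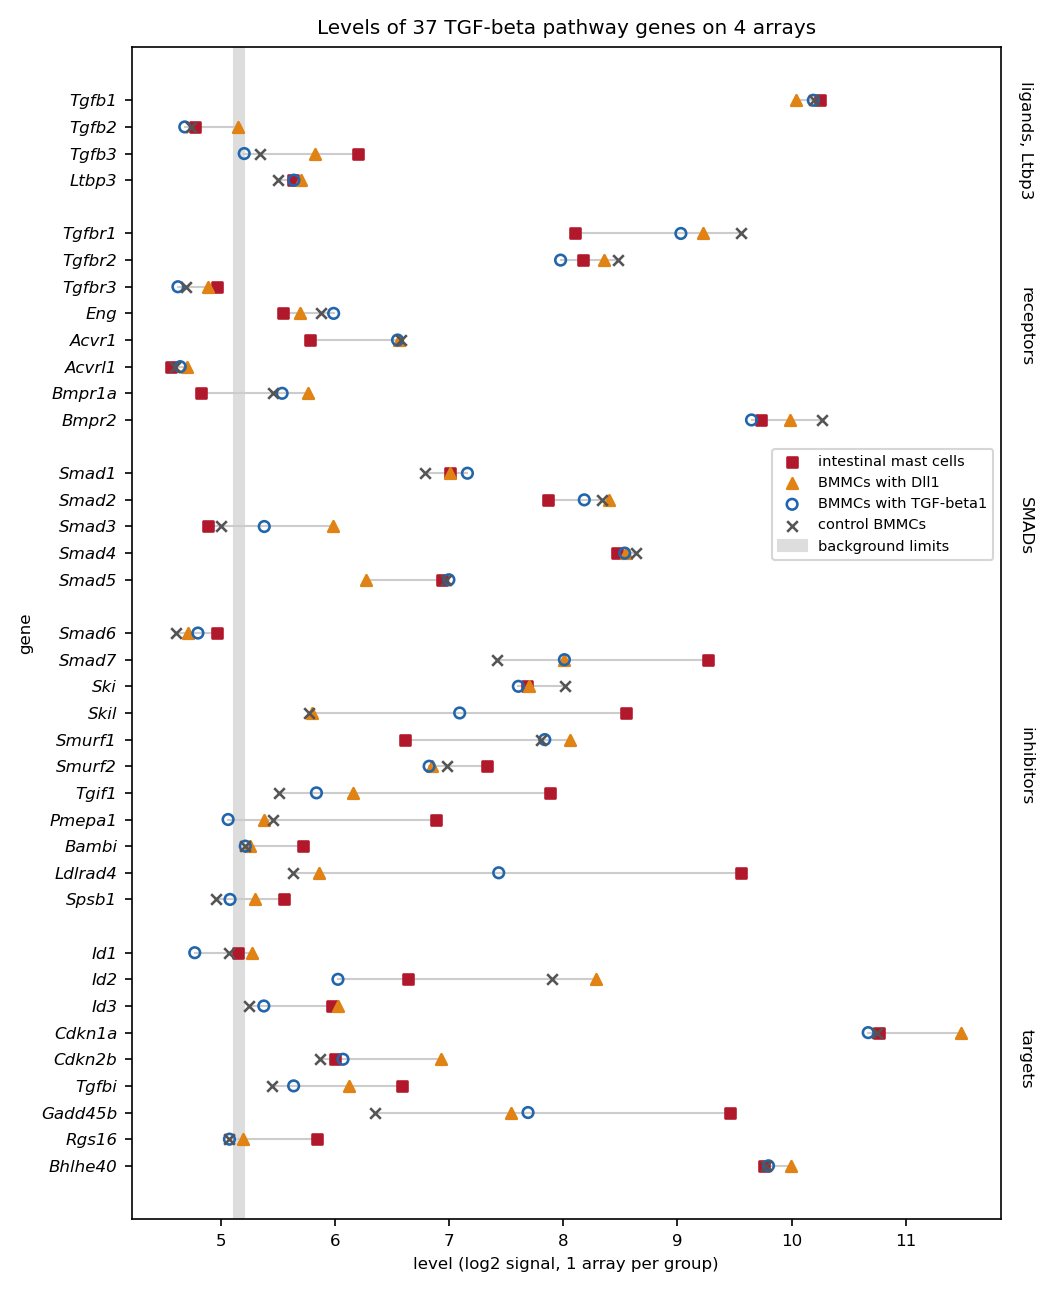
Level (log2 signal, x axis) of each of the 37 genes (y axis, grouped by role) on the 4 arrays, with 1 array per group: squares are intestinal mast cells, triangles BMMCs with Dll1, open circles BMMCs with TGF-beta1 and crosses control BMMCs. The grey band spans the background limits of the 4 arrays (5.11 to 5.20). Ldlrad4, Gadd45b, Skil, Tgif1 and Smad7 have the square far to the right of the cross, and Id2 has the open circle far to its left.

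Among the ligands, Tgfb1 was well above background in every group and nearly level. It read 10.25 in intestinal mast cells, 10.04 with Dll1, 10.19 with TGF-beta1 and 10.19 in control BMMCs, a range of 0.21. Tgfb2 was above the limit on the Dll1 array alone and only just, at 5.15, against 4.77 in intestinal mast cells, 4.68 with TGF-beta1 and 4.74 in control BMMCs. Tgfb3 read 6.20 in intestinal mast cells, 5.82 with Dll1, 5.20 with TGF-beta1 (not above the limit) and 5.34 in control BMMCs. Ltbp3, which binds latent TGF-beta, stayed between 5.49 and 5.70 on the 4 arrays. So no ligand was 2-fold higher or lower in any comparison.

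Of the receptors, Tgfbr1, Tgfbr2, Acvr1 and Bmpr2 were highest in control BMMCs. Tgfbr1, the type I receptor of TGF-beta, read 8.10 in intestinal mast cells, 9.22 with Dll1, 9.03 with TGF-beta1 and 9.56 in control BMMCs. Its partner Tgfbr2 read 8.17 in intestinal mast cells, 8.36 with Dll1, 7.98 with TGF-beta1 and 8.48 in control BMMCs. Tgfbr1 thus differed more between the groups (a range of 1.46) than Tgfbr2 (0.50). Bmpr2, the type II receptor of BMPs, read 9.73 in intestinal mast cells, 9.98 with Dll1, 9.65 with TGF-beta1 and 10.27 in control BMMCs. The type I receptor Acvr1 read 5.77 in intestinal mast cells and between 6.55 and 6.58 on the 3 BMMC arrays. Bmpr1a, another type I receptor, was below the limit in intestinal mast cells (4.83) and read 5.76 with Dll1, 5.53 with TGF-beta1 and 5.46 in control BMMCs. Both were lowest in intestinal mast cells. The co-receptor Eng (endoglin) stayed between 5.54 and 5.99. Tgfbr3, the co-receptor betaglycan, and Acvrl1, a type I receptor best known from endothelium, did not exceed 4.96 on any array.

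Of the SMADs, Smad4, the partner that both branches share, was the steadiest, between 8.47 and 8.64. Smad2 read 7.86 in intestinal mast cells, 8.40 with Dll1, 8.18 with TGF-beta1 and 8.34 in control BMMCs. Smad3, which carries the same signal as Smad2, read 4.89 in intestinal mast cells, 5.98 with Dll1, 5.38 with TGF-beta1 and 5.00 in control BMMCs. It was above the limit on the Dll1 and TGF-beta1 arrays only. Smad1 and Smad5 serve the BMP branch. Smad1 stayed between 6.79 and 7.16, and Smad5 was lowest with Dll1, at 6.27, against 6.97 in control BMMCs, and read at least 6.94 on the other arrays. Smad3 was 0.98 higher and Smad5 0.70 lower with Dll1 than in control BMMCs as measured. With the control value of Smad3 raised to the limit, its difference was at least 0.87, so Smad3 was not called, and Smad5 was within 2-fold.

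An inhibitor, Ldlrad4, had the widest range of the 37 genes over the 4 arrays, 3.93. Ldlrad4, a membrane protein that keeps Smad2 and Smad3 from the receptor, read 9.55 in intestinal mast cells, 5.86 with Dll1, 7.43 with TGF-beta1 and 5.63 in control BMMCs. Skil (SnoN), a corepressor that binds SMADs, read 8.55 in intestinal mast cells, 5.79 with Dll1, 7.09 with TGF-beta1 and 5.77 in control BMMCs. Both genes were highest in intestinal cells, intermediate with TGF-beta1 and close to control with Dll1. Smad7, which blocks the type I receptor, read 9.27 in intestinal mast cells, 8.01 with Dll1, 8.01 with TGF-beta1 and 7.42 in control BMMCs, so that the treatments were level there. Tgif1, a homeodomain corepressor of Smad2, read 7.88 in intestinal mast cells, 6.16 with Dll1, 5.84 with TGF-beta1 and 5.51 in control BMMCs. Pmepa1, which like Ldlrad4 sequesters receptor SMADs, read 6.88 in intestinal mast cells, 5.37 with Dll1, 5.06 with TGF-beta1 (below the limit) and 5.45 in control BMMCs. These 5 inhibitors had their highest value on the intestinal array.

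The remaining inhibitors differed less or the other way. Smurf1, a ubiquitin ligase that acts on SMADs and receptors, was lowest in intestinal mast cells, at 6.61, against 8.05 with Dll1, 7.84 with TGF-beta1 and 7.80 in control BMMCs. Its relative Smurf2 read 7.33 in intestinal mast cells, 6.85 with Dll1, 6.82 with TGF-beta1 and 6.98 in control BMMCs. Ski, the relative of Skil, was highest in control BMMCs, at 8.02, with 7.68 in intestinal mast cells, 7.69 with Dll1 and 7.61 with TGF-beta1. Smurf2 was thus highest in intestinal mast cells and Smurf1 and Ski were not. Bambi, a receptor decoy, read 5.72 in intestinal mast cells and 5.21 to 5.25 on the BMMC arrays. Spsb1, an adaptor of the ubiquitin system that limits Tgfbr2, had 2 probe sets near background, and only its brighter one was used. That probe set read 5.55 in intestinal mast cells, 5.30 with Dll1, 5.08 with TGF-beta1 and 4.95 in control BMMCs, while the other did not exceed 5.14. Smad6, an inhibitor mainly of the BMP branch, was below the limit everywhere, with 4.96 as its highest value.

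Among the targets, Id2 stood out as the gene that was low with TGF-beta1. The Id proteins bind and silence helix-loop-helix transcription factors. Id2 read 6.64 in intestinal mast cells, 8.28 with Dll1, 6.02 with TGF-beta1 and 7.90 in control BMMCs. Id3 read 5.98 in intestinal mast cells, 6.03 with Dll1, 5.37 with TGF-beta1 and 5.25 in control BMMCs, and Id1 read 5.15 in intestinal mast cells, 5.27 with Dll1, 4.77 with TGF-beta1 and 5.07 in control BMMCs, close to the limit or below it. The orders of the 3 Id genes over the arrays differed, and Id2 alone had differences past 2-fold. Gadd45b, a stress-inducible protein of growth arrest, read 9.46 in intestinal mast cells, 7.54 with Dll1, 7.69 with TGF-beta1 and 6.35 in control BMMCs, lowest in control.

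The cell cycle inhibitors Cdkn2b and Cdkn1a were highest with Dll1. Cdkn2b read 6.00 in intestinal mast cells, 6.92 with Dll1, 6.07 with TGF-beta1 and 5.87 in control BMMCs. Cdkn1a read 10.76 in intestinal mast cells, 11.49 with Dll1, 10.67 with TGF-beta1 and 10.75 in control BMMCs. In neither did the TGF-beta1 array exceed the control array by more than 0.20. Tgfbi, a matrix protein named for its induction by TGF-beta, read 6.58 in intestinal mast cells, 6.12 with Dll1, 5.64 with TGF-beta1 and 5.45 in control BMMCs. Rgs16, which shortens signalling of G proteins, read 5.84 in intestinal mast cells, 5.19 with Dll1, 5.07 with TGF-beta1 and 5.07 in control BMMCs, the last 2 below the limit. The transcriptional repressor Bhlhe40 lay between 9.76 and 9.99 on the 4 arrays.

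For 25 of the 37 genes RefSeq promoter sequences were at hand (GRCm38.p6, 250 bases before to 50 bases after the start of the transcript), 33 in all because some genes have several starts. They were searched on both strands for 4 short motifs that SMAD proteins are known to bind, namely CAGAC, the palindrome GTCTAGAC, GGCGCC and GGAGCC. No motif contains another. CAGAC was present in 18 of the 33 promoters (54.5%), against 49.6% of all 32851 promoters of the same length. GGCGCC was in 9 (27.3%, against 11.9%) and GGAGCC in 13 (39.4%, against 30.8%), and the median GC content was 63.3% in the 33 promoters against 52.7% in all. The full palindrome GTCTAGAC occurred in 1, that of Smad6, and in 0.213% of all. A match only says that these letters are present. No promoter was at hand for the other 12 genes, among them Ldlrad4, Skil, Smad7 and Pmepa1. The 5 promoters below belong to some of the genes at least 2-fold apart in a comparison, and to Smad6, shown for its palindrome. Those of Tgfbr1, Tgfbi and Smurf1, also at least 2-fold apart in a comparison, are not printed. They are written 5′ to 3′ on the strand of the gene, with motif matches in capitals (GTCTG and GGCTCC are CAGAC and GGAGCC on the other strand). Gadd45b lies at chr10:80929841-80930140 (plus strand), Id2 at chr12:25096043-25096342, Cdkn2b at chr4:89310983-89311282, Tgif1 at chr17:70853483-70853782 (the most upstream of 5 starts) and Smad6 at chr9:64022010-64022309 (all 4 on the minus strand).
Gadd45b: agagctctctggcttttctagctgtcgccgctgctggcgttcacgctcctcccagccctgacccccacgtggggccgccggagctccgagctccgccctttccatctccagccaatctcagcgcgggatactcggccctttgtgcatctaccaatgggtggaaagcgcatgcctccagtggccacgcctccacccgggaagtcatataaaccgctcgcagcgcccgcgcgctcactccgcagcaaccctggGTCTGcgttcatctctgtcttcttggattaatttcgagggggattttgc
Id2: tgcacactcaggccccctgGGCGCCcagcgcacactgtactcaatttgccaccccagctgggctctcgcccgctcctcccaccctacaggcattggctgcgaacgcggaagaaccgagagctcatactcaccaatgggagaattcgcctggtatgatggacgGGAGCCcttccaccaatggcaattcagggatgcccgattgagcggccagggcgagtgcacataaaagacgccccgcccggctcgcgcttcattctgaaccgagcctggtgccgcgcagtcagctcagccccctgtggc
Cdkn2b: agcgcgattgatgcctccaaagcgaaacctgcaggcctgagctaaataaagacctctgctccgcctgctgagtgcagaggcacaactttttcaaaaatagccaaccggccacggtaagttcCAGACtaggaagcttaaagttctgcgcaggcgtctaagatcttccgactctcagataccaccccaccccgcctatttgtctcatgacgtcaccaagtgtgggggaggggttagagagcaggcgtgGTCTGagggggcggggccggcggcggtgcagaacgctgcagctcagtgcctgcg
Tgif1: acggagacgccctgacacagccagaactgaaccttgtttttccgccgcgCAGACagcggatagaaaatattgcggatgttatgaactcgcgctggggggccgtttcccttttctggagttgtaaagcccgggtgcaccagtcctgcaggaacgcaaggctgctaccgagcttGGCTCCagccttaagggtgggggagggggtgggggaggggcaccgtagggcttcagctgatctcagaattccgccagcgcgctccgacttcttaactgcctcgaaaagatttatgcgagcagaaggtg
Smad6: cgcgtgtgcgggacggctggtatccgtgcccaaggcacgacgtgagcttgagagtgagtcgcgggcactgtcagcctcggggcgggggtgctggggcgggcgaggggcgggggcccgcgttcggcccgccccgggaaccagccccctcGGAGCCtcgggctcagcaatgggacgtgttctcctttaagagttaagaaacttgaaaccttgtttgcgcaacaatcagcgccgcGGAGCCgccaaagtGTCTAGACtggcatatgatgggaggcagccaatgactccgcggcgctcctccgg
Gadd45b held 1 CAGAC match and none of the other motifs, and Cdkn2b held 2 CAGAC matches. Id2, the gene that was lowest with TGF-beta1, had no CAGAC but 1 GGCGCC and 1 GGAGCC. Tgif1 had 1 CAGAC and 1 GGAGCC in this promoter. Smad6 had the palindrome and 2 GGAGCC, and its transcript was not above background on any array.

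TGF-beta1-treated BMMCs, set against control BMMCs, differed in few genes of the pathway after 6 days. A gene counted as tested if 1 or both arrays exceeded the limit, and was called where the arrays were at least 2-fold apart after any value under the limit was raised to it. Of the 37 genes, 30 were tested and 3 were higher, Ldlrad4 (3.50-fold, log2 difference 1.81), Gadd45b (2.54-fold, 1.34) and Skil (2.50-fold, 1.32). Over all 12063 genes tested, 0.506% were higher. Id2 was the 1 gene lower (3.68-fold, -1.88), where 0.887% of all genes were (1.39% in either direction). Placed among all genes tested, Ldlrad4 ranked 16 from the highest, Gadd45b 26 and Skil 28, and Id2 ranked 14 from the lowest. Smad7 was 0.59 higher, and the receptors Bmpr2 (-0.62), Tgfbr1 (-0.53) and Tgfbr2 (-0.50) were the next lower ones, all within 2-fold. The median over the 37 genes was 0.03 as measured, against 0.01 over all genes. Gadd45b also belongs to a list of immediate early genes, which answer handling or stimulation within minutes. On the TGF-beta1 array it was the only one of 29 such genes measured to be called, and the list's median difference was -0.0034.

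**Figure D2:**
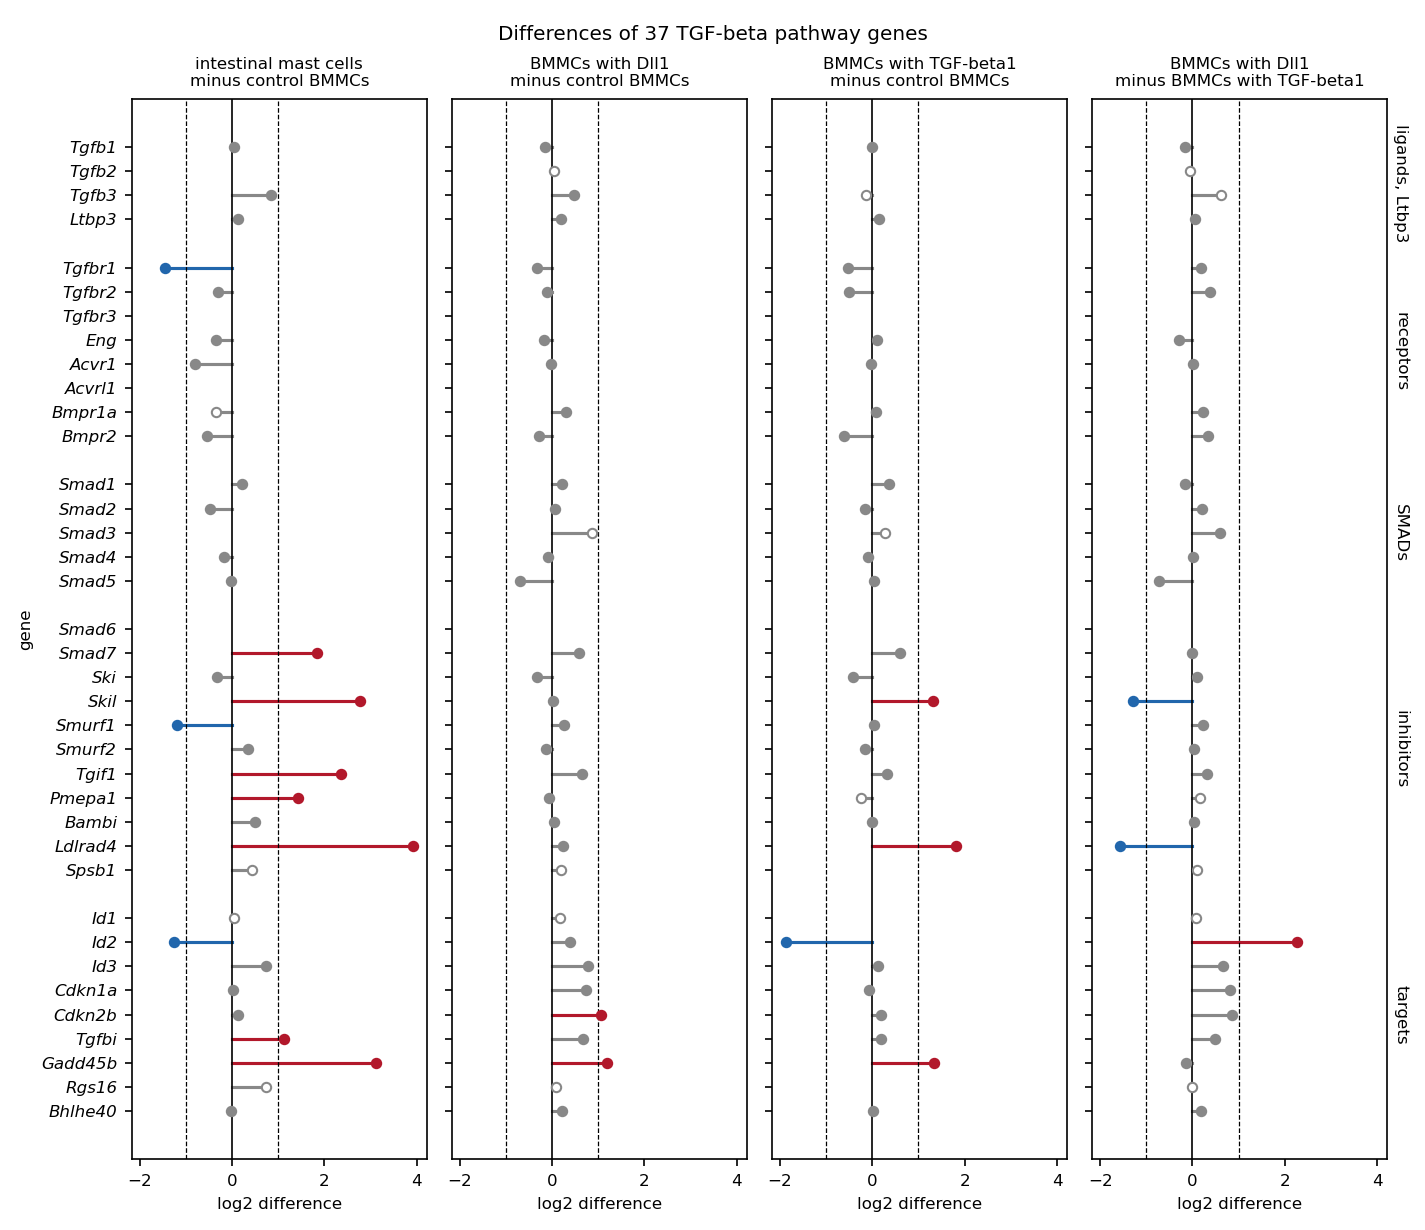
Log2 difference (x axis) of each gene (y axis) in the 4 comparisons named above the panels, after values under the background limit were raised to it. Red marks genes at least 2-fold higher, blue at least 2-fold lower and grey those within 2-fold (dashed lines at 1 and -1). Open circles have only 1 array above background, and genes below background on both arrays have no mark. The TGF-beta1 panel has 3 red and 1 blue gene, the intestinal panel 7 and 3.

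Dll1-cocultured BMMCs, set against control BMMCs, had 2 called genes. Of 34 genes tested, 2 were higher, Gadd45b (2.29-fold, 1.20) and Cdkn2b (2.08-fold, 1.05), and none was lower. Over all 12806 genes tested, 1.63% were higher and 1.78% lower (3.41% in either direction). Both shares depended on the scaling, with 1.37% higher and 2.48% lower after array medians were subtracted, where Cdkn2b differed by 0.97 and was no longer called. Smad3 was at least 1.82-fold higher, so whether it reached 2-fold is not known, and it passed 2-fold, as did Id3, when an offset of 16 was subtracted from the signal. Higher but within 2-fold as deposited were Id3 (0.78), Cdkn1a (0.74), Tgfbi (0.67), Tgif1 (0.65) and Smad7 (0.59), and Smad5 was lower (-0.70). All 9 targets had a positive measured difference, with a median of 0.67, though Rgs16, raised to the limit in control BMMCs, differed by -0.01 with array medians subtracted. Over all genes 12339 of 22180 were positive, with a median of 0.02. Skil (0.03) and Ldlrad4 (0.23), both called with TGF-beta1, were near control with Dll1. Of 29 immediate early genes 13 were higher on the Dll1 array, with a median of 7.92, against 5.95 in control BMMCs. Of 11 measured genes of adherent cells, listed for RNA of the CHO feeder, Dll1 (1.98), Actn1 (1.97), Anxa2 (1.78) and Thbs1 (1.09) were higher. Tpm1 (-0.74) and Col1a1 (-0.14) were lower but within 2-fold, and Cav1, Col1a2 and Tagln were below the limit on both arrays. Fn1 (0.36) and Krt18 (0.25) were within 2-fold. The summed signal was 9.60 on the log2 scale with Dll1 and 8.80 in control BMMCs. Of 8 eosinophil and basophil markers Prg2 (6.05), Epx (3.71) and Mcpt8 (2.39) were higher (summed signal 12.5 with Dll1 and 10.1 in control BMMCs). Ccr3 (-0.34) and Cd200r3 (-0.33) were lower but within 2-fold. Prss34 was below the limit with Dll1 (-0.62 after it was raised to the limit), and Siglecf and Il5ra were below it on both arrays. Of 11 T and innate lymphoid markers Gzma (2.81), Nkg7 (2.11) and Il7r (1.05) were higher (12.4 and 11.8). The T cell genes Cd3d, Cd3e, Cd3g, Cd4, Cd8a and Cd8b1 were below the limit on both arrays. Most of that summed signal was Gzmb, at 12.19 with Dll1 and 11.70 in control BMMCs (0.48, within 2-fold). The part of other cells, handling, bead selection or feeder RNA in these values was not tested.

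The direct comparison of Dll1-cocultured with TGF-beta1-treated BMMCs set the treatments against each other. Id2 was 4.79-fold higher with Dll1 (2.26), and Ldlrad4 (2.97-fold, -1.57) and Skil (2.46-fold, -1.30) were lower. Of 34 genes tested these were the 3 past 2-fold, where 2.19% of all 12690 genes tested were higher and 1.89% lower (4.08% in either direction). Id2 ranked 51 from the highest, and Ldlrad4 ranked 51 and Skil 101 from the lowest. Gadd45b differed by -0.15 and Smad7 by -0.00076 between the treatments. Cdkn2b (0.86), Cdkn1a (0.82), Id3 (0.65), and Smad3 (0.60) were higher with Dll1 and Smad5 (-0.72) lower, each within 2-fold, and Tgfb3 was at least 1.54-fold higher. This comparison shares its arrays with those against control, so these comparisons are not independent of each other.

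Intestinal mast cells, set against control BMMCs, had the most called genes of the list. Of 32 genes tested, 7 were higher and 3 lower. Higher were Ldlrad4 (15.2-fold, 3.93), Gadd45b (8.63-fold, 3.11), Skil (6.87-fold, 2.78), Tgif1 (5.17-fold, 2.37), Smad7 (3.60-fold, 1.85), Pmepa1 (2.69-fold, 1.43) and Tgfbi (2.20-fold, 1.14). Lower were Tgfbr1 (2.75-fold, -1.46), Id2 (2.40-fold, -1.27) and Smurf1 (2.29-fold, -1.20). Over all 12743 genes tested, 4.47% were higher and 6.73% lower (11.2% in either direction). Ldlrad4 ranked 33 from the highest, Gadd45b 68, Skil 86, Tgif1 121 and Smad7 191, while Tgfbr1 ranked 399, Id2 527 and Smurf1 605 from the lowest. By role, 5 of the 10 inhibitors tested were higher and 1 lower. The median over all 11 inhibitors was 0.60 as measured, with Smad6 below the limit on both arrays, and 0.97 over the 10 tested. As measured, and with genes below the limit on both arrays counted, the median was -0.44 over the 8 receptors and -0.11 over the 5 SMADs. It was 0.13 over the 9 targets, against 0.0044 over all genes. With the 99th percentile of the receptor probe sets as the limit, Pmepa1 (0.96) and Tgfbi (0.67) were no longer called.

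The 4 genes called with TGF-beta1 were all called in the same direction on the intestinal array. The intestinal difference was larger for Ldlrad4 (3.93, against 1.81 with TGF-beta1), Gadd45b (3.11, against 1.34) and Skil (2.78, against 1.32), and smaller for Id2 (-1.27, against -1.88). Both comparisons subtract the same control array, and any error in it moves both differences the same way. How many of all genes called with TGF-beta1 were also called on the intestinal array was not counted. The shared direction of these 4 genes therefore cannot be set against that of all genes. The values are given side by side, and no overlap between them was tested.

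**Figure D3:**
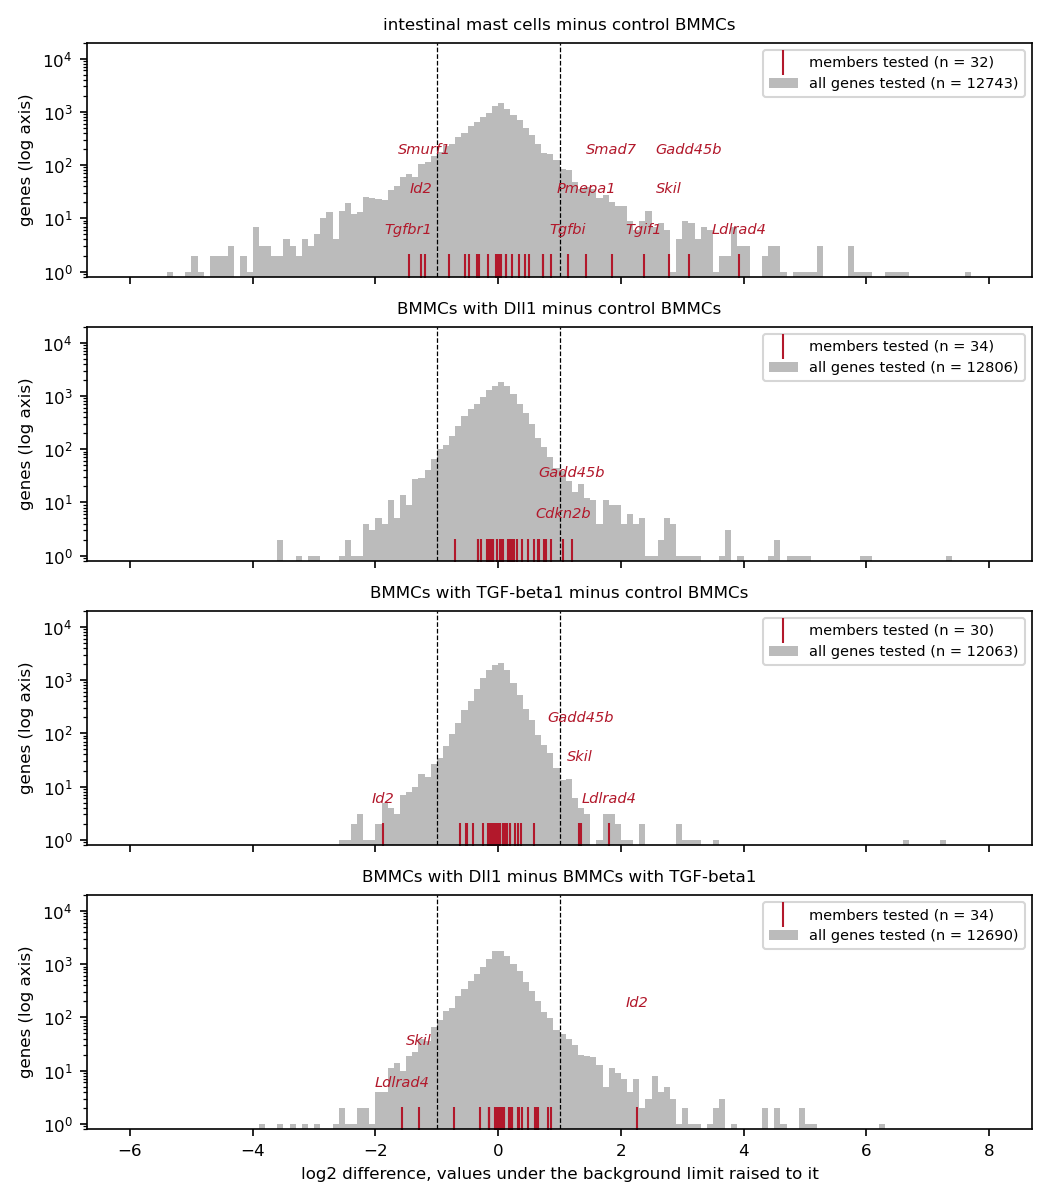
Number of genes (y axis, log scale) by log2 difference (x axis, bins of 0.1) for all genes tested in each of the 4 comparisons, in grey, with the tested genes of the TGF-beta list as red ticks and those at least 2-fold apart named. In the TGF-beta1 panel Ldlrad4, Gadd45b, Skil and Id2 lie in the thin tails of the distribution, and in the intestinal panel the wider grey tails reach past the called genes.

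Markers of several other cell types and genes of cell handling were higher on the intestinal array than on the control array. Immediate early genes were all above background there (29 of 29, median 9.40, against 26 of 29 and 5.95 in control BMMCs), and 26 of 29 were higher, Gadd45b among them. Of 11 measured T and innate lymphoid markers, 11 were above the limit in intestinal mast cells and 4 in control BMMCs, with a summed signal of 12.6 and 11.8 on the log2 scale. Higher among them were Gzma (5.22), Cd3g (3.73), Nkg7 (3.47), Cd3e (2.42) and Cd8b1 (2.20). Gzmb, a large part of both sums, read 11.77 in intestinal mast cells and 11.70 in control BMMCs. For intestinal epithelium 10 of 16 markers were above the limit in intestinal mast cells and 4 in control BMMCs (summed signal 11.0 and 8.95). Cdh1 (3.96), Muc2 (1.82), Fabp1 (1.62), Tff3 (1.49) and Krt8 (1.01) were higher, and Epcam, Vil1, Krt19, Cldn7, Lgr5 and Sis were below the limit on both arrays. Cdh1, at 10.12 in intestinal mast cells, was the largest part of that sum. It was above the limit in all 3 bone marrow cultures too, and higher with TGF-beta1 (7.57) than in control BMMCs (6.16, difference 1.41). It thus does not mark epithelium alone here. For macrophages and dendritic cells the counts were 8 and 4 of 11 (12.1 and 10.1), with Itgax (6.08), C1qb (2.10), C1qa (1.86) and Csf1r (1.44) higher. Cx3cr1 (0.91), Adgre1 (0.50), Cd68 (0.15) and Flt3 (0.03, with control raised to the limit) were within 2-fold. C1qc, Mrc1 and Zbtb46 were below the limit on both arrays. Most of the intestinal sum was Itgax (11.19) and Cx3cr1 (10.35), and most of the control sum was Cx3cr1 (9.44). For B and plasma cells the counts were 5 and 1 of 7 (8.39 and 7.59), with Jchain (1.88) higher. With control values under the limit raised to it, Cd79a (0.45), Cd79b (0.23), Pax5 (0.06) and Sdc1 (0.01) differed little. These genes read between 5.12 and 5.56 in intestinal mast cells, near the limit, and Ms4a1 and Tnfrsf17 were below it on both arrays. Of 8 eosinophil and basophil markers 5 were above the limit on each array (11.1 and 10.1), with Mcpt8 (2.44) and Siglecf (1.18) higher and Cd200r3 (-3.78) lower. Most of the intestinal sum was Mcpt8, at 10.94. Prg2 and Prss34 were below the limit in intestinal mast cells (-0.29 and -0.63 after they were raised to it). Ccr3 (-0.49) was lower but within 2-fold, Il5ra was close to the limit in intestinal mast cells (5.14), and Epx was below it on both arrays. Of 12 stromal markers 6 were above the limit on each array (10.3 and 10.0). Vim, at 9.19 in intestinal mast cells and 9.34 in control BMMCs, was the largest part of both sums. Pdgfrb was higher, at 8.39 in intestinal mast cells and 5.62 in control BMMCs (2.77), and Col1a2, Dcn, Des, Lum, Pdgfra and Tagln were below the limit on both. Of 12 endothelial markers 6 were above it in intestinal mast cells and 5 in control BMMCs (11.2 and 11.6), with Tek (-2.12) and Vwf (-2.11) lower and Cdh5, Cldn5, Emcn, Kdr, Lyve1 and Plvap below the limit on both. Flt1, above the limit on the intestinal array alone, was only just above it (5.12). Most of both sums was Pecam1, at 10.87 in intestinal mast cells and 11.00 in control BMMCs, and at least 10.77 on every array. The part of these cells, of digestion and of sorting in the values of the TGF-beta genes was not tested. All 10 mast cell markers measured exceeded the limit on the 4 arrays, with 3 of them lower in intestinal mast cells than in control BMMCs (median difference -0.81). Kit read 11.75 in intestinal mast cells, 12.54 with Dll1, 12.22 with TGF-beta1 and 12.65 in control BMMCs.

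Beyond the 37 genes, 111 further genes of the wider TGF-beta family were measured. In TGF-beta1-treated against control BMMCs 74 of them were tested, 4 were higher (5.41%, against 0.506% of all genes tested) and 1 was lower (1.35%, against 0.887%, so near the share of all genes), and the median measured difference was -0.0021. Higher were Mcpt1, Mcpt2, Itgae and Gdf11, a ligand of the activin branch (2.53-fold, 1.34). Of these 4, the 3 genes Mcpt1, Mcpt2 and Itgae were listed as targets and are also mucosal mast cell markers. The share higher was thus largely set by how the list was chosen, and it is no evidence of a pathway response. The shares higher than control with Dll1 and in intestinal cells, given below, also count these 3 genes and carry the same limit. Gdf11 read 8.24 in intestinal mast cells, 7.71 with Dll1, 8.84 with TGF-beta1 and 7.50 in control BMMCs, highest with TGF-beta1. Lower was Bmp7, a BMP ligand (3.30-fold, -1.72). Mcpt1 read 12.72 in intestinal mast cells, 12.46 with Dll1, 12.41 with TGF-beta1 and 4.82 in control BMMCs, below the limit. Mcpt1 and Mcpt2 are close relatives, and whether their probes tell them apart was not tested. Itgae read 11.28 in intestinal mast cells, 7.97 with Dll1, 8.84 with TGF-beta1 and 5.57 in control BMMCs. Bmp7 read 5.40 in intestinal mast cells, 8.62 with Dll1, 7.83 with TGF-beta1 and 9.55 in control BMMCs, so it was highest in control and 17.8-fold lower in intestinal cells (-4.15).

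With Dll1, 9 of 84 tested were higher than in control BMMCs (10.7%, against 1.63% of all genes tested) and none was lower (1.78% of all), with a median of 0.13, against 0.02 over all genes. Beside the chymases and Itgae, they included Nr4a1 (23.7-fold), the AP-1 subunit Junb (6.56-fold) and Sox4 (at least 3.45-fold), a transcription factor that is a known TGF-beta target. Nr4a1 and Junb are also immediate early genes. Bmp1, a protease that matures matrix proteins (2.45-fold), Thbs1, an activator of latent TGF-beta (at least 2.13-fold), and Fkbp1a, which binds the type I receptor (2.08-fold), were the others. Thbs1 also stands in the list of adherent feeder genes. Sox4, Bmp1, Thbs1 and Fkbp1a complete the count and, like Ltbp4 and Nrros below, were named after their values were seen. Against TGF-beta1-treated BMMCs 7 of 85 tested were higher with Dll1 (8.24%, against 2.19% of all genes tested), led by Nr4a1 (25.2-fold) and Junb (5.96-fold). The transcription factor Runx3 (2.23-fold) and Gdf11 (2.19-fold) were lower with Dll1, a share of 2.35% that is near the 1.89% of all genes.

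In intestinal mast cells 11 of 82 tested were higher than in control BMMCs (13.4%, against 4.47% of all genes tested) and 6 lower (7.32%, against 6.73%), with a median of 0.04. The share that was lower was thus near that of all genes. Beside the chymases they included Nr4a1 (85.0-fold), Itgae (52.2-fold), Junb (10.8-fold) and Ltbp4, a binding protein of latent TGF-beta (at least 10.6-fold). Ltbp4 read 8.52 in intestinal mast cells and was below the limit on the 3 BMMC arrays (4.93 with Dll1, 4.83 with TGF-beta1 and 4.76 in control BMMCs). Lower beside Bmp7 were Nedd4l, a ubiquitin ligase of SMADs (5.79-fold), Ahnak (2.53-fold), the protease Furin, which cleaves TGF-beta precursors (2.51-fold), Cish, a suppressor of cytokine signalling (2.48-fold), and Nrros, which holds latent TGF-beta on myeloid cells (2.02-fold).

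**Figure D4:**
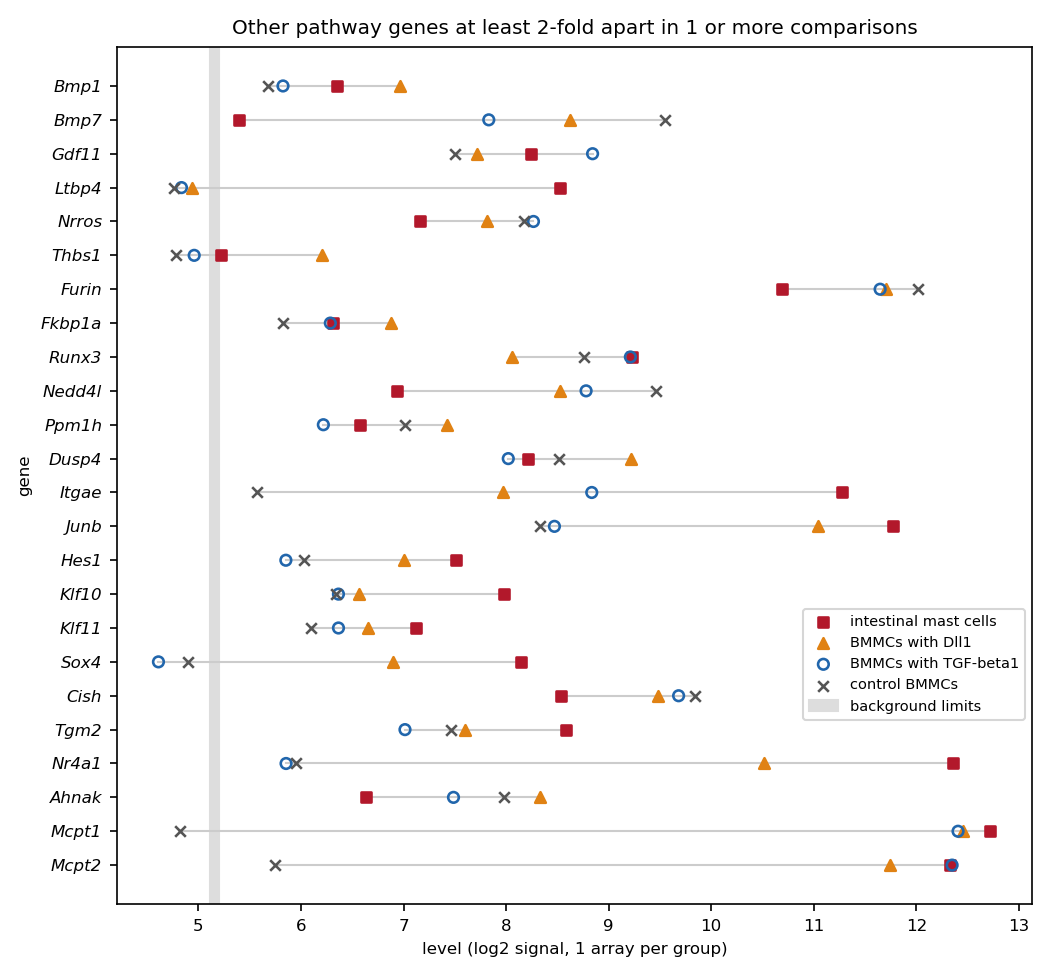
Level (log2 signal, x axis) on the 4 arrays of the 24 further pathway genes (y axis) that were at least 2-fold apart in 1 or more of the 4 comparisons, with symbols as in the plot of the 37 genes. Bmp7 and Nedd4l run from the square at the left to the cross at the right, and Ltbp4 has only its square above the grey background band.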

How the data were processed

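Total RNA was amplified to biotin-labelled cDNA from 2 ng with a kit for small inputs and hybridized to Affymetrix arrays, per the labels' protocols. The authors deposited log2 values of 33793 probe sets on 4 arrays, and their software, normalization and build were not given in the sources used here. Ranked from low to high, the columns lay 0.06 apart on average (at most 0.25), and they were used unchanged. Precision is limited by having 1 array per group. Symbols came from the platform annotation: 23521 probe sets had 1 symbol, 1814 several and 8458 none listed. A gene with several probe sets (1082 genes) was taken from the brightest. The background limit was the 95th percentile of 1440 olfactory, vomeronasal and taste receptor probe sets of the array. With 1 array per group no test was possible, and a difference was called by size (at least 2-fold). The rule was tested on simulated data. Of 121 further pathway symbols, 10 were not analysed here. All 37 members were named, and of the other pathway genes at most the 5 largest differences past 2-fold in each direction, in addition to a few named as the rest of a small count. The members and lists were chosen with earlier results of these data known. Alternatives were array medians subtracted, quantile normalization, other limits, the mean of probe sets, an offset of 16 subtracted and a threshold of 1.5-fold. Python 3.11.15, pandas 2.3.3 and numpy 2.4.6 were used.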

Additional observations from a re-analysis of the deposited data

How the results depend on the processing

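With 1 array per group no value has an error, and genes near the background limit, such as Smad3, Id1 and Spsb1, have at most a bound in the comparisons against control. No paired analysis was possible because each group has 1 array. The 19 differences called among the 37 genes kept their sign under the 7 alternatives to the values and limits, and 16 of them stayed past 2-fold in all 7. The exceptions were Cdkn2b with Dll1 (0.97 with array medians subtracted) and, in intestinal cells with the 99th percentile as the limit, Pmepa1 (0.96) and Tgfbi (0.67). With array medians subtracted, 1 gene was higher with Dll1 than in control. With the offset of 16 subtracted, 4 were higher with Dll1 than in control (Id3 and Smad3 gained) and 2 with Dll1 than with TGF-beta1. At 1.5-fold, 8 were higher and 1 lower with Dll1 than in control, 2 were lower with TGF-beta1 than in control, and 6 were higher with Dll1 than with TGF-beta1. In intestinal cells 10 were higher and 4 lower than in control, both with the offset and at 1.5-fold. Gained there were Id3, Rgs16 and Tgfb3 (higher) and Acvr1 (lower). Over all genes, the offset changed the counts to 360 higher and 394 lower with Dll1 than in control, 111 and 184 with TGF-beta1 than in control, and 434 and 403 with Dll1 than with TGF-beta1. For intestinal cells against control they were 823 and 1179. At 1.5-fold those counts were 629 and 956, 303 and 482, and 796 and 913, and 1314 and 1890 for intestinal cells. With no background limit all 22180 genes counted as tested, and the shares of all genes higher and lower than in control were 2.84% and 3.96% in intestinal cells, 1.04% and 1.1% with Dll1 and 0.289% and 0.523% with TGF-beta1. With Dll1 against TGF-beta1 they were 1.36% and 1.13%. For the count of genes above background, the 99th percentile was an alternative chosen after seeing the data. With it 24 of the 37 genes were above background in intestinal mast cells, 22 with TGF-beta1, 21 with Dll1 and 17 in control BMMCs. This order differs from that at the 95th percentile.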
